A study of Arabidopsis thaliana with 4 samples.

Results

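Root hairs are single epidermal cells of the root that grow outward as thin tubes, and the genes that build them form one of the best known developmental programmes of Arabidopsis thaliana. The genes described here are 47 of the 33602 rows of a gene expression table. They comprise 32 root hair genes given as a list of identifiers and 15 rows whose description reads exactly "Proline-rich extensin-like family protein". The list holds 6 cell fate genes, 5 bHLH factors, 7 genes of growth and signalling, 6 transporters and enzymes and 8 wall proteins.

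Seedlings of Col-0, the wild type (WT), were set against those of jmj28-3. JMJ28 is a jumonji-domain protein of the kind that removes methyl groups from histones, and the nature of the jmj28-3 lesion is not given in the labels. Both genotypes were raised on half-strength MS medium with 1% sucrose at 23 °C under 16 h of light and 8 h of darkness, and no other treatment is named. The row of JMJ28 itself (AT4G21430) had 3.80 and 5.54 FPKM in WT against 3.65 and 3.33 in jmj28-3, without overlap and not called (log2 change -0.32, adjusted p = 0.327 in limma), so its level does not by itself check the labels. Polyadenylated RNA of whole seedlings aged 12 days gave 4 libraries, 2 per genotype, so shoots and all root tissues are mixed in every value. The labels do not say whether replicates were grown apart, so each p-value reflects the spread of these libraries alone, and that spread may be technical.

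In the root epidermis, cells above the junction of 2 cortical cells become hair cells and the others do not. In non-hair cells the MYB protein WER, later joined by MYB23, acts with bHLH partners to switch on GL2, a homeodomain factor that represses hair formation. Small MYB proteins such as CPC, TRY and ETC1 move between cells and block that complex in hair cells, where the bHLH factors RHD6 and RSL1 then start the hair and RSL2, RSL3 and RSL4 drive its growth. Their targets include enzymes that make reactive oxygen, lipid kinases, expansins, peroxidases and the proline-rich glycoproteins, extensins among them, that form the wall of the growing tube.

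Many hair growth genes carry the root hair element (RHE) near their start, a motif to which RSL4 is known to bind. The motif was searched in the 250 bases before the annotated start of each gene, on both strands, in the RefSeq annotation and genome TAIR10.1. It was found in 8 of the 32 listed genes (25.0%), in 0 of the 15 extensin rows and in 207 of 27443 protein-coding genes (0.754%). All 8 were wall protein genes (6 of 8) or transporter and enzyme genes (2 of 6). The RHE was described in part from such genes, EXPA7 and EXPA18 among them, so the shares are a description and no independent finding. The 8 matches are shown as sequence, although most listed genes and all 15 extensin rows had no match. Each line gives the gene's own strand, with the RHE in capitals and up to 20 bases on each side.
PRP3: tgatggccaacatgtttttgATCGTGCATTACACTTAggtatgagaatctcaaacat
PRP1: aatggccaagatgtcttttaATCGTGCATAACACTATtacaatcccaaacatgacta
RHS18: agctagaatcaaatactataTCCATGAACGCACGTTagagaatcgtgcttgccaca
EXPA7: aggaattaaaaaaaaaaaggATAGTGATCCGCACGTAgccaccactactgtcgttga
EXPA18: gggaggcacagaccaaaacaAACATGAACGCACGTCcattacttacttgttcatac
RHS13: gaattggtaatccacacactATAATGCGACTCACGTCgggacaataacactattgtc
RHS15: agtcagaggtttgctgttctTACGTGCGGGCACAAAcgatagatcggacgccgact
LRX1: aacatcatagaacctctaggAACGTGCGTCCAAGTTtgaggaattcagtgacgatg

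The stretches lie at chr3:23182535-23182591 (PRP3), chr1:20504752-20504808 (PRP1), chr5:7426198-7426253 (RHS18), chr1:4276407-4276463 (EXPA7), chr1:23331503-23331558 (EXPA18), chr4:993213-993269 (RHS13, minus strand), chr4:12920616-12920671 (RHS15) and chr1:4069879-4069934 (LRX1). In PRP3, PRP1, RHS15 and LRX1 the motif reads on the opposite strand. No other motif searched was more frequent in the list than over all genes. CANNTG stood in 16 of 32 listed windows, against 55.3% of all genes, CACGTG in 1, against 6.49%, and TAAATGCA or TAAATGTA, the L1 box forms, in 0, against 4.49%. CACGTG is a form of CANNTG, and no match says only that these letters are not in the window.

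Of the 32 genes, 26 had both jmj28-3 libraries below both WT libraries, where 32.7% of the 20232 tested genes did, and 1 had both above, where 22.4% did. The median log2 change of log2(FPKM + 1) was -0.43 in the list and -0.03 over all tested genes, and 29 of 32 changes were negative against 56.6% of all genes. FPKM are fragment numbers scaled by transcript length and library size. A gene was called when its limma p was under 0.05 after Benjamini-Hochberg adjustment across every gene tested. By that rule 5 of 32 were lower, where 3.79% of tested genes were, 1 was higher, where 4.18% were, and 26 were not called. At an unadjusted p under 0.05, 21 of 32 were lower, against 13.7% of tested genes. All 32 passed the filter on low values, a mean of at least 0.5 FPKM.

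**Figure D1:**
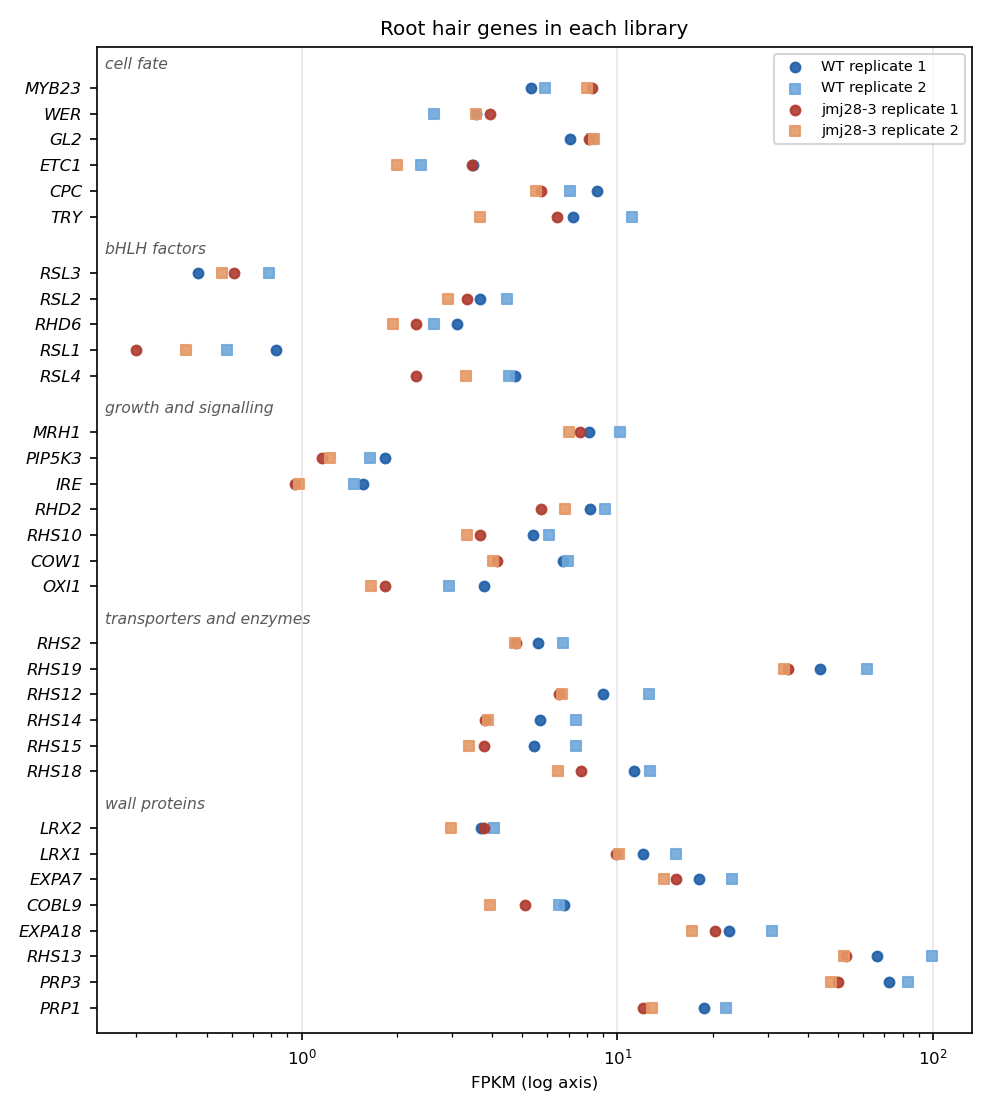
Level of each of the 32 listed genes in the 4 libraries, in FPKM on a log axis, grouped by role; 1 point is 1 library. In 26 genes both jmj28-3 points lie left of both WT points, and MYB23 is the 1 gene with both to the right.

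The cell fate genes did not move together. MYB23 (AT5G40330), which backs up WER in non-hair cells and also acts in leaf hairs, had 5.31 and 5.90 FPKM in WT against 8.28 and 8.01 in jmj28-3. Both jmj28-3 values lay above both WT values, and the gene rose 1.45-fold (log2 change 0.47, SE 0.096, adjusted p = 0.0463 in limma). GL2 (AT1G79840), the repressor of hair fate, had 7.10 and 8.28 FPKM in WT against 8.12 and 8.44 in jmj28-3, and WER (AT5G14750) had 3.57 and 2.63 against 3.96 and 3.56. Both pairs overlapped and neither gene was called (adjusted p = 0.622 and 0.432 in limma). With a term for replicate number in the fit, MYB23 was not called. The call on MYB23 was lost when any 1 library was left out, with adjusted p in limma from 0.105 to 0.240, with no filter (0.0912) and without the variance trend (0.0622).

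The movable MYB genes, which promote hair fate, lay lower or overlapped. CPC (AT2G46410) had 8.64 and 7.08 FPKM in WT against 5.73 and 5.54 in jmj28-3, a log2 change of -0.41 (adjusted p = 0.102 in limma). TRY (AT5G53200) had 7.24 and 11.10 in WT against 6.45 and 3.68 in jmj28-3, with a wide spread inside each genotype (log2 change -0.76, SE 0.276, adjusted p = 0.173 in limma). ETC1 (AT1G01380) had 3.49 and 2.39 against 3.46 and 2.00 and showed no separation of the genotypes. CPC and TRY separated without overlap and were not called. These MYB proteins also act in leaf hairs, and whole seedlings do not tell the organs apart. Of 6 genes that regulate leaf hairs, limma called 0, where 3.79% of all tested genes were called lower and 4.18% higher. At an unadjusted p under 0.05 the count was also 0, where 13.7% of all tested genes were lower. With shares this low, 0 of 6 does not set these genes apart. Of the 6, those with the smallest p were MYB5 and MYB106, with log2 changes of -0.40 and -0.18 (adjusted p = 0.321 and 0.623 in limma).

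The 5 bHLH factors had low levels, from a mean of 0.535 FPKM for RSL1 to 3.73 for RSL4. RSL4 (AT1G27740), whose amount is known to set hair length, had 4.73 and 4.55 FPKM in WT against 2.31 and 3.32 in jmj28-3. Its jmj28-3 values lay 39.3% below WT in the mean without overlap, and it was not called (log2 change -0.58, 95% interval -0.97 to -0.18, adjusted p = 0.0925 in limma). RHD6 (AT1G66470), at the head of the programme, had 3.10 and 2.62 in WT against 2.30 and 1.94 in jmj28-3 (log2 change -0.31, adjusted p = 0.255 in limma). RSL2 (AT4G33880) and RSL1 (AT5G37800) also separated without overlap, at 3.67 and 4.48 against 3.35 and 2.90 FPKM for RSL2 and at 0.83 and 0.58 against 0.30 and 0.43 for RSL1. RSL3 (AT2G14760) overlapped, at 0.47 and 0.79 against 0.61 and 0.56. So 4 of 5 were below WT in both libraries, where 32.7% of all tested genes were. Limma called 0 of 5, where 3.79% of all tested genes were called lower. At an unadjusted p under 0.05, 1 of 5 was lower, against 13.7% of all tested genes. With a pseudocount of 1, log2 changes of genes near 1 FPKM understate the difference in level: RSL1 was 48.2% lower in mean FPKM at a log2 change of -0.32.

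All 7 genes of growth and signalling had both jmj28-3 values below both WT values, where 32.7% of all tested genes did. Of the 7, 2 were called lower, where 3.79% of all tested genes were. COW1 (AT4G34580), a Sec14-type phosphatidylinositol transfer protein needed for a single growing tip, had 6.72 and 6.96 FPKM in WT against 4.17 and 4.05 in jmj28-3. It fell by 39.9% (log2 change -0.62, SE 0.095, adjusted p = 0.0220 in limma). RHS10 (AT1G70460), a proline-rich receptor kinase known to restrain hair growth, had 5.39 and 6.08 in WT against 3.67 and 3.34 in jmj28-3 and fell by 38.9% (log2 change -0.58, SE 0.113, adjusted p = 0.0410 in limma). In both the genotypes did not overlap. OXI1 (AT3G25250), a kinase of the AGC family that responds to reactive oxygen, had 3.79 and 2.92 against 1.83 and 1.66, 48.0% lower in the mean and not called (adjusted p = 0.0602 in limma).

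RHD2 (AT5G51060), the NADPH oxidase that makes reactive oxygen at the hair tip, had 8.19 and 9.11 FPKM in WT against 5.71 and 6.83 in jmj28-3 (log2 change -0.41, adjusted p = 0.1 in limma). The AGC kinase gene IRE (AT5G62310) had 1.56 and 1.47 against 0.95 and 0.98. The lipid kinase gene PIP5K3 (AT2G26420), whose product marks the site of tip growth, had 1.83 and 1.65 against 1.16 and 1.23. MRH1 (AT4G18640), a leucine-rich repeat kinase, had the smallest difference of the 7, 8.11 and 10.21 against 7.62 and 7.0, and none of these 4 genes was called. The calls on COW1 and RHS10 were lost when any 1 library was left out, with adjusted p in limma of up to 0.170 and 0.243, and with no filter (0.0543 and 0.0828). That on RHS10 was also lost without the variance trend (0.0541). Both calls were lost with a term for replicate number in the fit.

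**Figure D2:**
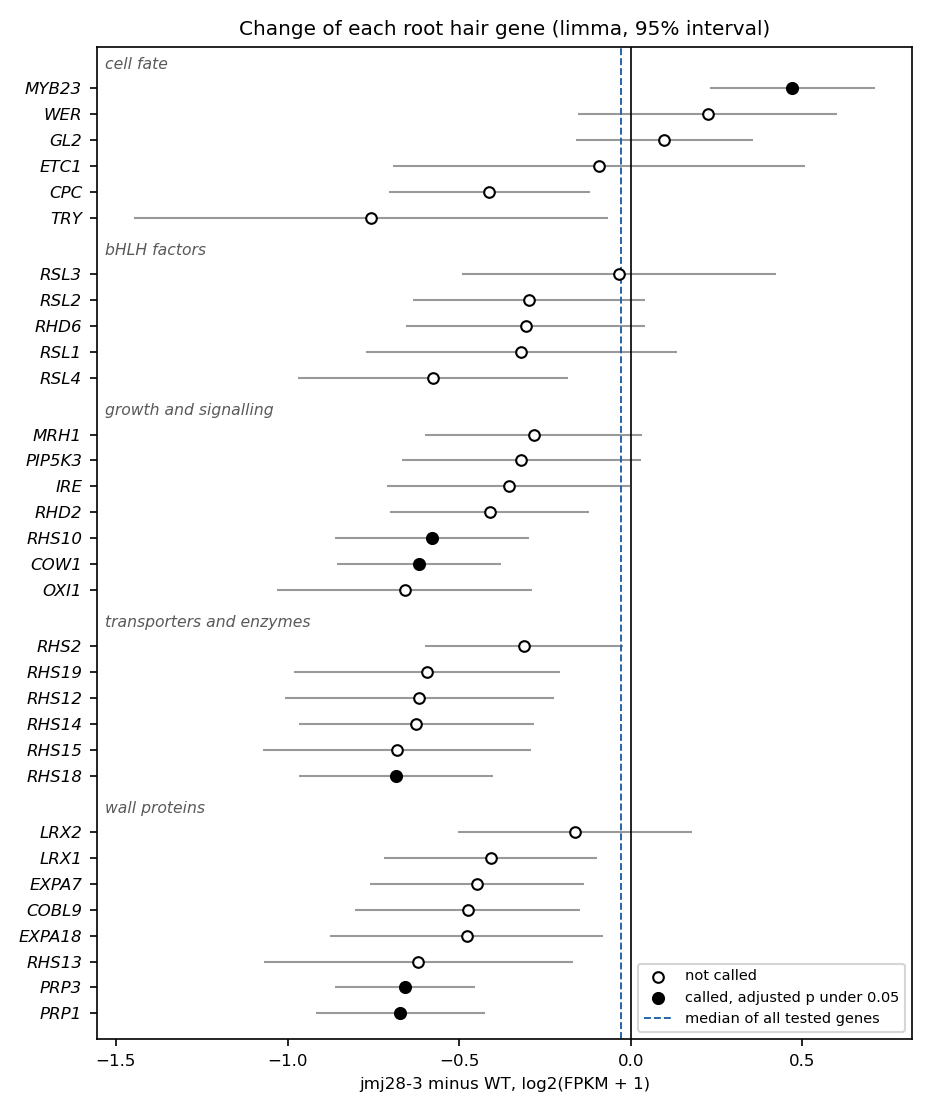
Change of each listed gene in log2(FPKM + 1), jmj28-3 minus WT, with its 95% interval from limma; filled points passed an adjusted p under 0.05. Outside the cell fate genes every point lies below 0, from -0.03 for RSL3 to -0.68 for RHS18, and the dashed line marks the median of all tested genes at -0.03.

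The transporters and enzymes were lower by the widest margin, with a median log2 change of -0.62. In 6 of 6 both jmj28-3 libraries lay below both WT libraries, against 32.7% of all tested genes. RHS18 (AT5G22410), a class III peroxidase, had 11.25 and 12.64 FPKM in WT against 7.67 and 6.46 in jmj28-3, and fell by 40.9% (log2 change -0.68, SE 0.113, adjusted p = 0.0265 in limma). It was the 1 called gene of the 6, where 3.79% of all tested genes were called lower. RHS14 (AT4G22080), of the pectate lyase family, had 5.68 and 7.37 against 3.80 and 3.90 (log2 change -0.62, adjusted p = 0.0559 in limma). RHS15 (AT4G25220), annotated as a glycerol-3-phosphate permease, had 5.43 and 7.41 against 3.78 and 3.40 (log2 change -0.68, adjusted p = 0.0617 in limma). In both genes the jmj28-3 libraries were close together and the WT libraries apart.

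The same held for the other 3. The peroxidase gene RHS19 (AT5G67400) had 43.88 and 61.53 FPKM in WT against 34.65 and 33.57 in jmj28-3. The pectin methylesterase family gene RHS12 (AT3G10710) had 8.99 and 12.59 against 6.51 and 6.69, and RHS2 (AT1G12950), of the MATE transporter family, had 5.61 and 6.73 against 4.78 and 4.74. Their adjusted p in limma were 0.0838, 0.0795 and 0.179. WT replicate 2 lay above WT replicate 1 in all 6 genes of this group. Without WT replicate 1, RHS19 and RHS12 passed (adjusted p = 0.0279 and 0.0491 in limma). RHS18 lost its call when any 1 library was left out, with adjusted p of up to 0.179, with no filter (0.0662) and without the variance trend (0.0582). RHS18 was also not called with a term for replicate number in the fit. A filter at a mean of 2 FPKM brought RHS14 to an adjusted p of 0.0468 in limma.

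The wall proteins included the 2 most abundant genes of the list, RHS13 and PRP3. In 7 of 8 both jmj28-3 libraries lay below both WT libraries, against 32.7% of all tested genes, and 2 were called lower, against 3.79%. PRP3 (AT3G62680), a proline-rich wall protein of root hairs, had 72.21 and 83.04 FPKM in WT against 49.94 and 47.54 in jmj28-3, and fell by 37.2% (log2 change -0.66, SE 0.081, adjusted p = 0.0119 in limma). Its relative PRP1 (AT1G54970) had 18.85 and 22.05 against 12.02 and 12.86, and fell by 39.2% (log2 change -0.67, SE 0.098, adjusted p = 0.0189 in limma). Both carry an RHE on the opposite strand, at 167 to 151 bases before the start in PRP3 and at 129 to 113 in PRP1. The most abundant gene, RHS13 (AT4G02270), of the Ole e 1 and extensin family, had 66.27 and 99.24 in WT against 52.97 and 51.99 in jmj28-3. The WT libraries of RHS13 differed more from each other than WT replicate 1 did from jmj28-3, and the gene was not called (adjusted p = 0.108 in limma).

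The hair expansin genes, whose proteins loosen the wall, were lower and not called. EXPA7 (AT1G12560) had 18.08 and 22.98 FPKM in WT against 15.33 and 14.06 in jmj28-3 (log2 change -0.45, adjusted p = 0.0973 in limma), and EXPA18 (AT1G62980) had 22.63 and 30.82 against 20.31 and 17.19 (log2 change -0.48, adjusted p = 0.144 in limma). LRX1 (AT1G12040), an extensin with a leucine-rich repeat that organises the hair wall, had 12.04 and 15.37 against 9.88 and 10.14. COBL9 (AT5G49270), a COBRA-like protein anchored to the membrane, had 6.77 and 6.52 against 5.11 and 3.95, and LRX2 (AT1G62440) overlapped at 3.70 and 4.08 against 3.79 and 2.98. The call on PRP3 was lost without jmj28-3 replicate 1 (adjusted p = 0.0746 in limma) and without jmj28-3 replicate 2 (0.133). That on PRP1 was kept only without WT replicate 1, with adjusted p of up to 0.142 in limma otherwise, and was also lost without the variance trend (0.0520). Without WT replicate 1, RHS13 passed (adjusted p = 0.0220 in limma).

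The genes with an RHE in their window and those without are set side by side only as values. The 8 genes with an RHE had log2 changes from -0.41 for LRX1 to -0.68 for RHS18 and RHS15. The 6 wall, transporter and enzyme genes without one ran from -0.16 for LRX2 to -0.62 for RHS12 and RHS14. The ranges overlapped, and the difference between them was not tested.

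**Figure D3:**
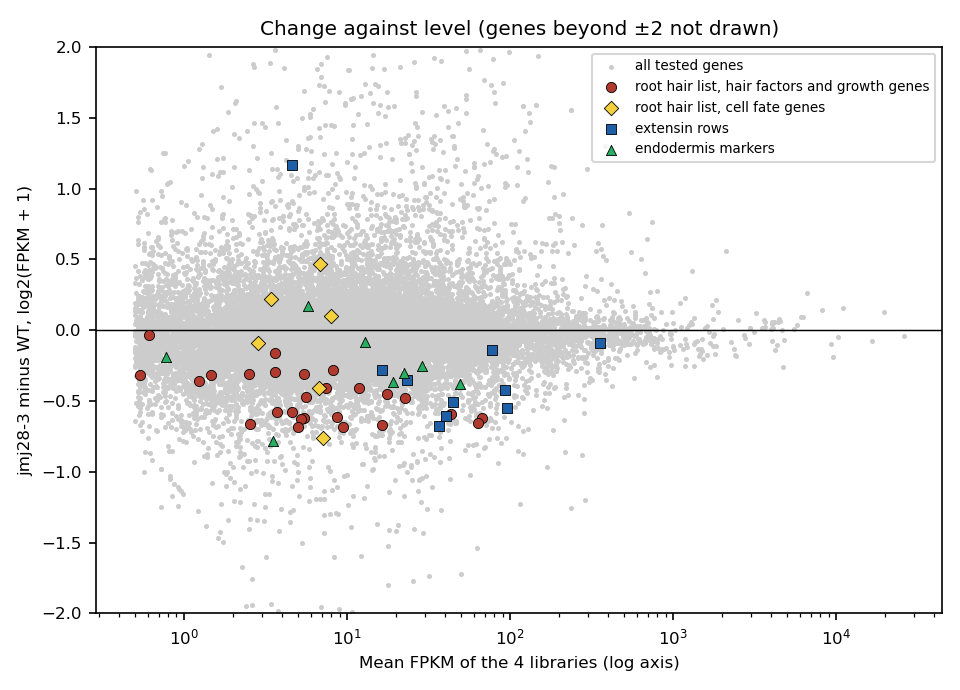
Change in log2(FPKM + 1), jmj28-3 minus WT, against mean FPKM of the 4 libraries on a log axis for all 20232 tested genes (grey), the listed genes, the 10 tested extensin rows and 8 endodermis markers. The hair factors and growth genes lie below 0 at all levels from 0.535 to 67.6 FPKM, and 1 extensin row, AT1G26250, stands above 1.

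Extensins are rod-like wall glycoproteins in which a serine followed by 4 or more prolines recurs many times. The description does not ensure this repeat, as AT5G59170 holds 0 such runs and AT4G08380 holds 2. Of the 15 rows with this description, 10 passed the filter and 5 did not. Of the 10, 4 were lower, where 3.79% of all tested genes were, 1 was higher, where 4.18% were, and 5 were not called. The 4 that fell and the 1 that rose are shown by 96 coding bases each, the first stretch with the most complete repeats, with every serine codon followed by at least 4 proline codons in capitals.
AT3G28550: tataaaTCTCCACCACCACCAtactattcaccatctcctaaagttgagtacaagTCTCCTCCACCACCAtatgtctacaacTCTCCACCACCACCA
AT3G54580: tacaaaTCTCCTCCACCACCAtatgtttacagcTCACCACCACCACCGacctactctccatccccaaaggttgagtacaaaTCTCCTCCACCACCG
EXT12: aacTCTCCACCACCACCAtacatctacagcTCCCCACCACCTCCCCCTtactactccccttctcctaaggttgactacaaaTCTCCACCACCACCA
EXT10: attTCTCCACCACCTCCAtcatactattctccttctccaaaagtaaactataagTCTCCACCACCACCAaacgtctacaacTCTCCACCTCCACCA
AT1G26250: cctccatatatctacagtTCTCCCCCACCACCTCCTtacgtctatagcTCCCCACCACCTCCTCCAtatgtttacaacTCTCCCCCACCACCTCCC

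These lie in TAIR10.1 at chr3:10703630-10703725 (minus strand), chr3:20203486-20203581 (minus strand), chr4:7784297-7784392 (plus strand), chr5:2041584-2041679 (minus strand) and chr1:9084089-9084184 (plus strand). Such runs number 70 in AT3G28550, 68 in AT3G54580, 22 in EXT12, 42 in EXT10 and 28 in AT1G26250. Each of the 5 transcripts is annotated as 1 exon. Proline codons make up 44.4% of AT1G26250 and 35.3% to 38.3% of the 4 others.

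EXT12 (AT4G13390) had 41.94 and 48.77 FPKM in WT against 27.87 and 28.05 in jmj28-3, and fell by 38.4% (log2 change -0.67, SE 0.085, adjusted p = 0.0128 in limma). EXT10 (AT5G06640) had 44.69 and 52.81 against 32.10 and 31.12 and fell by 35.2% (adjusted p = 0.0203 in limma). AT3G54580 had 106.29 and 121.09 against 79.35 and 74.90 and fell by 32.2% (adjusted p = 0.0170 in limma). In these and in AT3G28550, at 106.35 and 108.32 against 78.94 and 80.71 and 25.6% lower (adjusted p = 0.00984 in limma), the genotypes did not overlap.

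AT1G26250 went the other way. It had 2.41 and 2.47 FPKM in WT against 5.98 and 7.53 in jmj28-3, and rose 2.77-fold (log2 change 1.17, SE 0.134, adjusted p = 0.00938 in limma). The gene lies at chr1:9083838-9085464, and TAIR10.1 annotates AT1G26255 on the opposite strand over 98.9% of it. The table has no row for AT1G26255 and the sources used here do not say whether strand was counted, so reads of the 2 cannot be told apart. Its neighbour AT1G26240 was near 0, at 0.08, 0.07, 0.10 and 0.00 FPKM.

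The most abundant row, AT2G43150, had 367.97 and 362.24 FPKM in WT against 359.89 and 326.48 in jmj28-3 and was not called (log2 change -0.09, 95% interval -0.24 to 0.06, adjusted p = 0.420 in limma). AT1G23720 had 79.50 and 83.25 against 74.11 and 73.02 (log2 change -0.14, adjusted p = 0.180 in limma). The 2 rows were lower by 6.0% and 9.60%, and the 4 called rows by 25.6% to 38.4%. EXT6 (AT2G24980) had 46.37 and 59.15 against 35.57 and 37.64 (adjusted p = 0.0670 in limma), and the tandem relatives AT4G08400 and AT4G08410 had 17.57 and 18.77 against 14.26 and 15.37 and 24.45 and 28.41 against 19.65 and 21.16. The 5 rows under the filter were AT1G26240, AT4G08370 at 0 in all libraries, AT4G08380 at 0.04 FPKM in WT replicate 1 and 0 elsewhere, AT5G19810 from 0.10 to 0.70 FPKM and AT5G59170 from 0.04 to 0.16 FPKM.

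Repeats limit how far extensin reads can be assigned. Of all runs of 50 bases in the transcript, 56.1% of AT4G08400 and 43.5% of AT4G08410 occur in another annotated transcript on either strand, mainly in each other, so their values are uncertain. The share was 23.9% in EXT10, mainly in AT5G06645, which overlaps it on the opposite strand. It was 2.91% in AT3G54580, 1.14% in AT3G28550 and 0 in EXT12, and at most 5.24% in the 32 listed genes (GL2, which overlaps the ribosomal protein gene AT1G79850 on the opposite strand). Runs of 50 bases that recur inside the same transcript made up 27.2% of AT3G54580 and 24.2% of AT3G28550. They made up 37.3% of EXT6, 1.88% of EXT10 and 0 of EXT12. A further pair of rows lie just outside the description: AT5G06630, spelled with a small initial, had 41.74 and 46.44 FPKM against 30.33 and 30.42, and the hydroxyproline-rich glycoprotein gene AT3G54590 had 66.37 and 76.47 against 48.37 and 49.68, both chosen after their values were seen. The calls on AT3G28550, AT3G54580, EXT12 and EXT10 were lost without jmj28-3 replicate 1 and without jmj28-3 replicate 2, with adjusted p in limma of up to 0.1, 0.160, 0.131 and 0.174. Without WT replicate 2 EXT12 alone of the 4 was called, and AT3G28550 was lost in every leave-out. Without the variance trend EXT12 alone of the 4 stayed called, and with no filter EXT10 was lost (adjusted p = 0.0526 in limma). Among the 4 leave-outs the rise of AT1G26250 was called in 1, that without jmj28-3 replicate 1, with adjusted p in limma of up to 0.0941 in the others. It was called in every alternative that kept all libraries.

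**Figure D4:**
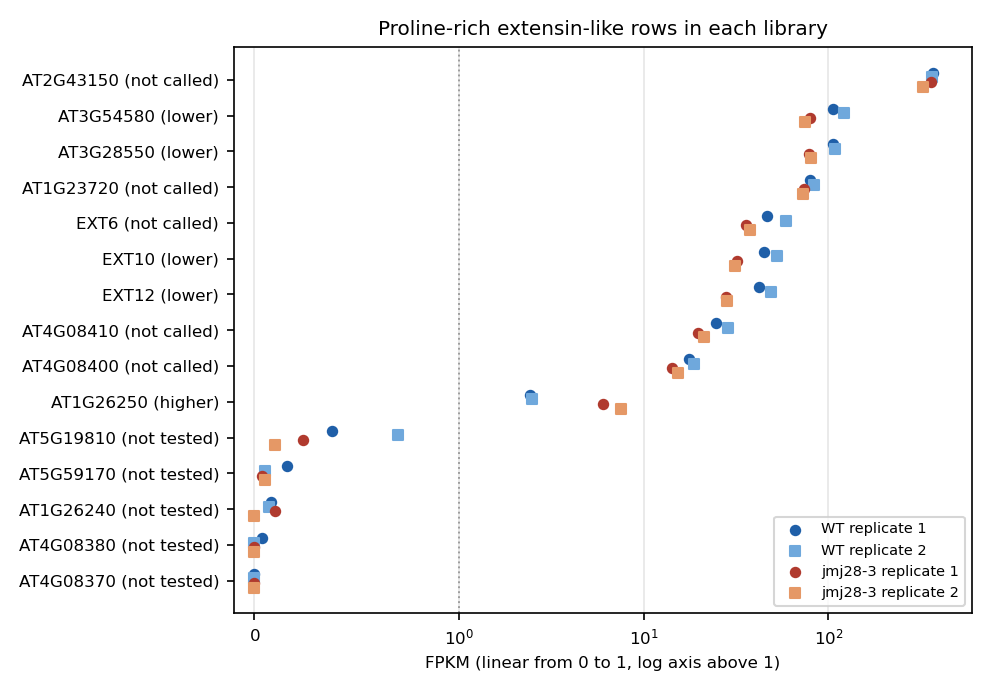
Level of the 15 extensin rows in each library, in FPKM on an axis that is linear up to 1 and logarithmic above, ordered by mean level, with the call beside each name. The 9 most abundant rows have both jmj28-3 points left of both WT points, and AT1G26250 has both to the right.

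A further 42 genes of root hair development stand outside the list. Of 41 tested, 5 were lower, where 3.79% of all tested genes were, 4 were higher, where 4.18% were, and 32 were not called. Their median log2 change was -0.08, against -0.03 over all tested genes, and 28 of 41 changes were negative, against 56.6%. Both jmj28-3 libraries lay below both WT libraries in 22 and above in 8, where 32.7% and 22.4% of all tested genes did. Summed FPKM of the 42 did not fall, at 1185.2 and 1184.1 in WT against 1214.2 and 1215.1 in jmj28-3, with ACT2 as the largest part. CPL3 (AT4G01060), a movable MYB like CPC, had 14.71 and 12.94 FPKM against 6.67 and 8.41, LRL3 (AT5G58010), a bHLH factor of hair growth, 12.24 and 14.95 against 7.75 and 8.12, and MRH6 (AT2G03720) 14.96 and 13.70 against 7.71 and 9.25. The receptor kinase gene ERU (AT5G61350), active in hair growth, had 3.58 and 3.68 against 2.17 and 1.82, and the fifth was the peroxidase gene PRX44. Their adjusted p in limma ran from 0.0230 for MRH6 to 0.0443 for PRX44.

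The 4 genes of this set called higher were XXT1, SHV3, FER and RALF22. XXT1 (AT3G62720), a xylosyltransferase that builds xyloglucan, had 12.96 and 10.60 FPKM in WT against 31.10 and 30.61 in jmj28-3 and rose 2.62-fold (adjusted p = 0.00378 in limma). SHV3 (AT4G26690), a membrane-anchored protein of wall assembly, had 32.86 and 31.45 against 49.52 and 50.85 and rose 1.56-fold (adjusted p = 0.00576 in limma). The receptor kinase gene FER and RALF22, for a peptide of the family that FER binds, rose 1.39-fold and 1.32-fold (adjusted p = 0.0132 for each in limma). Of the 9 called, XXT1 and SHV3 stayed called in every alternative that kept all libraries. PRX44, FER and RALF22 were named after their values were seen. Without jmj28-3 replicate 2 none of these 9 genes was called, with adjusted p in limma of up to 0.234. Leaving out jmj28-3 replicate 1 kept only XXT1, leaving out WT replicate 2 only XXT1 and SHV3, and leaving out WT replicate 1 only XXT1, SHV3, FER, LRL3 and PRX44.

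Fewer hair cells, a smaller share of root in the seedling and less RNA per cell cannot be told apart in whole seedlings. Summed FPKM of the 26 listed genes outside cell fate was 349.8 and 443.8 in WT against 264.5 and 253.7 in jmj28-3, 34.7% lower in the mean, with RHS13, PRP3 and RHS19 as the largest parts. The sum over all 15 extensin rows was 838.2 and 886.1 in WT against 728.1 and 696.1 in jmj28-3, 17.4% lower. Its largest part was AT2G43150, at 367.97 and 362.24 FPKM in WT against 359.89 and 326.48 in jmj28-3, 6.0% lower. Markers of the endodermis, an inner root layer, were lower too. Their 8 genes summed to 154.7 and 160.7 against 132.9 and 120.8, 19.5% lower, with 2 of 8 called lower and 0 higher, against 3.79% and 4.18% of all tested genes.

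The called endodermis genes were CASP4, a protein of the Casparian strip, at 4.34 and 5.04 FPKM against 2.59 and 2.04 (adjusted p = 0.0329 in limma), and SCR, a regulator of the layer, at 22.34 and 21.30 against 16.74 and 16.65 (adjusted p = 0.0364). Both calls were lost when any 1 library was left out, with adjusted p of up to 0.200 and 0.219, with no filter (0.0728 and 0.0597) and without the variance trend (0.0525 and 0.0748). MYB36, another regulator of the layer, was higher in both jmj28-3 libraries and not called. The 6 markers of root cap and root tip summed to 7.98 and 7.46 against 6.64 and 7.32. Of them limma called 0, where 3.79% of all tested genes were called lower and 4.18% higher. At an unadjusted p under 0.05 the count was also 0, where 13.7% of all tested genes were lower. Of these 6 markers, those with the smallest p were SMB (log2 change 0.35) and BRN2 (log2 change -0.49), adjusted p = 0.214 and 0.236 in limma. None of the endodermis and root tip markers was at 0 in any library. Their part in the lower values of the hair genes was not tested.

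**Figure D5:**
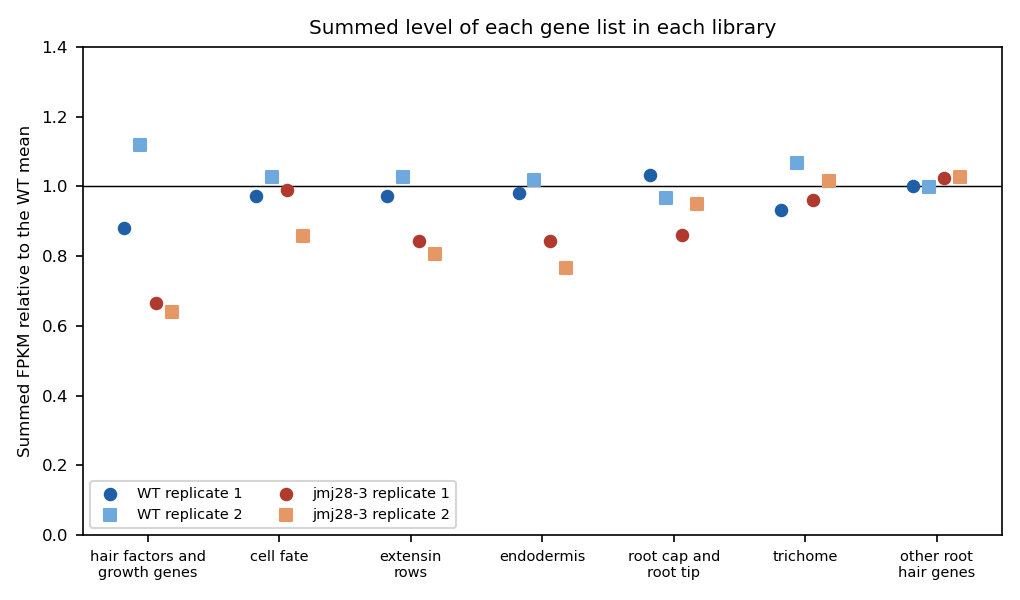
Summed FPKM of each gene list in each library, divided by the mean of the 2 WT libraries. Hair factors and growth genes stand at 0.667 and 0.639 in jmj28-3 and at 0.882 and 1.118 in WT, and endodermis markers at 0.843 and 0.766 in jmj28-3.

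WT replicate 2 was above WT replicate 1 in 22 of the 32 listed genes, where 50.6% of all tested genes were. These were 13 of the 14 transporter, enzyme and wall protein genes, 4 of 7 growth and signalling genes, 3 of 6 cell fate genes and 2 of 5 bHLH factors. Without WT replicate 2 the median log2 change of the list was -0.37, and without WT replicate 1 it was -0.51. Without either jmj28-3 library 0 of the 32 listed genes were called lower, and without WT replicate 2 it was 1, PRP3. Without WT replicate 1 the count was 5, as with all libraries, but the genes were PRP3, PRP1, RHS19, RHS12 and RHS13, and COW1, RHS10 and RHS18 were not among them. Over the whole table, library sums ran from 983897 to 991510 FPKM. Depth read from the steps between low values was 1.00 to 1.17 times that of WT replicate 1, and absolute depth is unknown.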

How the data were processed

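Per the labels, the 4 libraries were polyadenylated RNA of whole seedlings, 2 WT and 2 jmj28-3. The authors deposited FPKM, 1 column per library, with 0 value columns unmatched. TopHat, RSEM, edgeR and the build TAIR10 are named in the submitters' processing notes, without versions or settings, and nothing in the sources states strand use. From these values, log2(FPKM + 1) was fitted with limma 3.58.1 in R 4.3.3 with genotype as the only term and a trend of the prior variance, on genes with a mean of at least 0.5 FPKM. Tests were two-sided with an adjusted p threshold of 0.05, and the fit was tested on simulated data. Fold and percent differences are ratios of mean FPKM. No set test was made. The deposited FPKM hold no counts, so depth gives no interval.

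The members, the lists and the tests were chosen with earlier results of these data known. The rule for named genes asked for all 4 values of the called members, the 2 of smallest p in a role group without calls, the called and 4 most abundant extensin rows and, from other lists, up to 6 called genes or the 2 of smallest p. Values of the other listed genes and extensin rows were added beyond that rule. Positions and sequences came from RefSeq TAIR10.1 by gene identifier, since the table carries no coordinates. The fit was repeated with a pseudocount of 0.1 or 0.5, without the filter or with a minimum of 2 FPKM, after median-of-ratios, quantile or equal-sum (TPM) scaling, with the replicate block, without the variance trend, and without each library in turn.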

Additional observations from a re-analysis of the deposited data

How the results depend on the processing

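The counts of genes called depend on the model more than on scaling. With no filter, the replicate block and no variance trend, 526, 534 and 469 of all genes were higher and 351, 328 and 287 lower. In the list of 32 these settings gave 0 higher in each and 2 lower in each. Of the other root hair genes they gave 0, 2 and 1 lower, and median-of-ratios scaling gave 3. Without the variance trend 2 of these were higher and 1 extensin row was lower. Leaving out 1 library gave 70 to 398 genes higher and 21 to 164 lower over all genes, 0 higher and 0 to 5 lower in the list, 0 to 1 higher and 0 to 4 lower in the extensin rows, and 0 to 3 higher and 0 to 2 lower among other root hair genes. Such fits have 1 residual degree of freedom. The median log2 change of the list was -0.53 with a pseudocount of 0.1 and -0.51 to -0.37 in leave-outs, and that of the extensin rows -0.45 to -0.29.

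None of the 11 called genes of the list and the extensin rows changed sign in any alternative. Calls in 3 of them held in every alternative that kept all libraries, and none held in all 4 leave-outs. Among uncalled genes, RSL3 was at 0.010 with quantile normalization and from -0.18 to 0.11 in leave-outs, GL2 at -0.00021 to 0.20, ETC1 at -0.38 to 0.19 and MYB106 at -0.42 to 0.061. The cause was not tested. Replicate numbers share no stated day or plant, and deviations from the group means of same-numbered libraries correlated at -0.13 over tested genes. With the replicate block, MYB23, COW1, RHS10 and RHS18 were not called (adjusted p = 0.0979, 0.0581, 0.0903 and 0.0640 in limma), nor were CPL3, MRH6, ERU, CASP4 and SCR, and the 2 listed genes called lower were PRP3 and PRP1. A crossed replicate block, chosen after seeing the data, called 13 of the 32 lower, with 1129 lower and 1158 higher over all genes.

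Scaling moved the median of all genes to at most 0.0011 and at least -0.035, under 0.1 log2 units. Absolute depth is unknown, so precision at levels under 1 FPKM, as in RSL1 and RSL3, cannot be stated.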
